A study of Mus musculus with 3 samples.

Results

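The 10 genes described here are regulators of the luminal lineage of the mammary gland and were characterized by the estrogen receptor α (ERα) peaks around them: Esr1, Foxa1, Gata3, Gata6, Elf5, Tfap2c, Cited1, Tbx3, Runx1 and Myb. They were 10 of the 37273 annotated genes on the assembled mouse chromosomes, of which 22367 are protein-coding, and they were chosen by name. A peak was assigned to a gene when its midpoint was within 100 kb of any annotated transcription start site (TSS) of that gene, so a peak could count for more than 1 gene. By this rule, 21 of 9607 replicate 1 peaks and 16 of 6819 replicate 2 peaks belonged to the 10 genes. Where peaks of both lists overlapped by at least 1 bp, the bases covered by both were taken as a shared region, and 14 of 6250 shared regions belonged to the 10 genes.

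The peaks came from chromatin immunoprecipitation followed by sequencing (ChIP-seq), in which DNA bound by ERα is pulled down with an antibody and sequenced. The mice were WT females of the BALB/c strain (BALB/cJ in the study's methods), ovariectomized at 6 weeks of age to remove the source of ovarian hormone, rested for 10 days and given 100 ng of 17β-estradiol 2 h before collection. Each of the 2 ERα ChIP replicates was a pool of mammary glands from 6 mice, and peaks of both were called against the same 1 input library. There was no ChIP library from vehicle-treated mice here, so what follows is ERα occupancy with estradiol present, without a baseline. The lists hold positions and scores and no expression levels, so the labelled tissue could not be checked against marker genes, and whole glands hold stromal and fat cells besides the epithelium. Each peak has a score, which is the negative log10 of the p-value from the authors' peak caller multiplied by 10, and the cutoff of 1e-08 put the lowest score at 80. Both deeper sequencing and stronger enrichment raise a score, so a ratio between the replicates is given beside the ratios of all pairs.

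ERα is a nuclear receptor that, with estradiol bound, sits on DNA as a dimer at estrogen response elements (EREs), which are palindromes, and also joins DNA through other factors such as AP1. In the mammary gland it is made by a subset of luminal cells, the hormone-sensing cells, whose identity depends on GATA3 and FOXA1, while ELF5 drives the neighbouring luminal progenitors toward milk-secreting cells.

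Sequences from shared ERα regions at 8 of the genes are shown here, and a line does not show which bases ERα contacts. The motif results rest on 400-bp windows of all 14 shared regions, so the lines hold only some of the words counted. Each line covers the base pairs around the best ERE-like match of a shared region on the plus strand of NCBIM37, the assembly of mm9. Capitals mark that 13-base match and any AP1 word (TGACTCA) or GATA word (AGATAA or AGATAG or TGATAA or TGATAG) on either strand. For the Esr1 region 20.4 kb upstream and the Myb region, the line was extended to take in all GATA words or both AP1 words.
Esr1, 52.3 kb upstream, chr10:5787093-5787193: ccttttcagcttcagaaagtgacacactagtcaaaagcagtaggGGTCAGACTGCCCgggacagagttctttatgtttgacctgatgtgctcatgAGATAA
Esr1, 20.4 kb upstream, chr10:5755211-5755485: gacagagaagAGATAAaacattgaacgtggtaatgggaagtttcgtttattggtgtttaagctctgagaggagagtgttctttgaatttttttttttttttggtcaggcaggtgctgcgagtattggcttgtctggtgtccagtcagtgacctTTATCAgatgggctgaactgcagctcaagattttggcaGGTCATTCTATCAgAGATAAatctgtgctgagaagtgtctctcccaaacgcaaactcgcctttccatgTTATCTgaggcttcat
Gata3, 67.9 kb downstream, chr2:9727364-9727464: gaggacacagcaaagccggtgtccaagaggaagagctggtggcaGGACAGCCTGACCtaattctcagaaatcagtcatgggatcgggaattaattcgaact
Elf5, 48.7 kb upstream, chr2:103203088-103203188: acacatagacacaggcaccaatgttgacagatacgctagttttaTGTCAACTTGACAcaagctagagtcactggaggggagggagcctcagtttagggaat
Tfap2c, 92.7 kb downstream, chr2:172470320-172470420: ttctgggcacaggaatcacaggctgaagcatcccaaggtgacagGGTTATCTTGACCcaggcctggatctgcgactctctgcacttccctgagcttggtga
Cited1, 53.5 kb upstream, chrX:99500922-99501022: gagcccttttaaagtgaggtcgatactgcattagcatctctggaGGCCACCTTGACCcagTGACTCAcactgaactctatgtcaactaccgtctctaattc
Tbx3, 32.0 kb upstream, chr5:120088481-120088581: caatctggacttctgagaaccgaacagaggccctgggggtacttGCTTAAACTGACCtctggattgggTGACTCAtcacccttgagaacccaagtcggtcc
Runx1, 15.1 kb downstream, chr16:92680783-92680883: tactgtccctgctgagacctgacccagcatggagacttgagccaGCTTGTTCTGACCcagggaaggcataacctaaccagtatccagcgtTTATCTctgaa
Myb, 45.5 kb downstream, chr10:20835191-20835335: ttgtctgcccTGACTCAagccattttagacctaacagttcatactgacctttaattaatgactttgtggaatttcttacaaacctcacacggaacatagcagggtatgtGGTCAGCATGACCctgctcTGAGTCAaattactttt
The Myb line held a perfect ERE, GGTCAGCATGACC, which lay 6 bp from an AP1 word. The Esr1 line at 52.3 kb, GGTCAGACTGCCC, the Gata3 line, GGACAGCCTGACC, the Tfap2c line, GGTTATCTTGACC, and the Cited1 line, GGCCACCTTGACC, each differed from the consensus at 1 of 10 fixed positions. The other lines showed weaker matches, with 2 mismatches for Elf5 and Tbx3 and 3 for Runx1 and for the Esr1 region at 20.4 kb.

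Of the 10 genes, 9 had at least 1 shared region in reach (90.0%, 95% Clopper-Pearson interval 55.5% to 99.7%, which covers counting error only). Over all protein-coding genes the same share was 38.1%. At least 1 replicate 1 peak was in reach of all 10 genes, against 49.6% of protein-coding genes, and at least 1 replicate 2 peak of 9, against 40.3%. The genes divided into 3 kinds by count: Esr1 had 6 shared regions, 8 genes had 1 each, and Foxa1 had 0. When a region counted only for the gene with the nearest TSS of any gene, non-coding ones included, 5 genes kept at least 1 and 7 regions were left, against 11.8% of protein-coding genes. With the nearest TSS of a protein-coding gene, a setting added after the values were seen, all 9 genes and 13 regions stayed, against 14.1%. At a score of at least 200 in both lists, a p-value of 1e-20, 5 regions (35.7%) at 4 genes (40%) remained, namely Esr1, Gata3, Tbx3 and Runx1, against 41.7% of all shared regions and 20.9% of protein-coding genes.

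**Figure D1:**
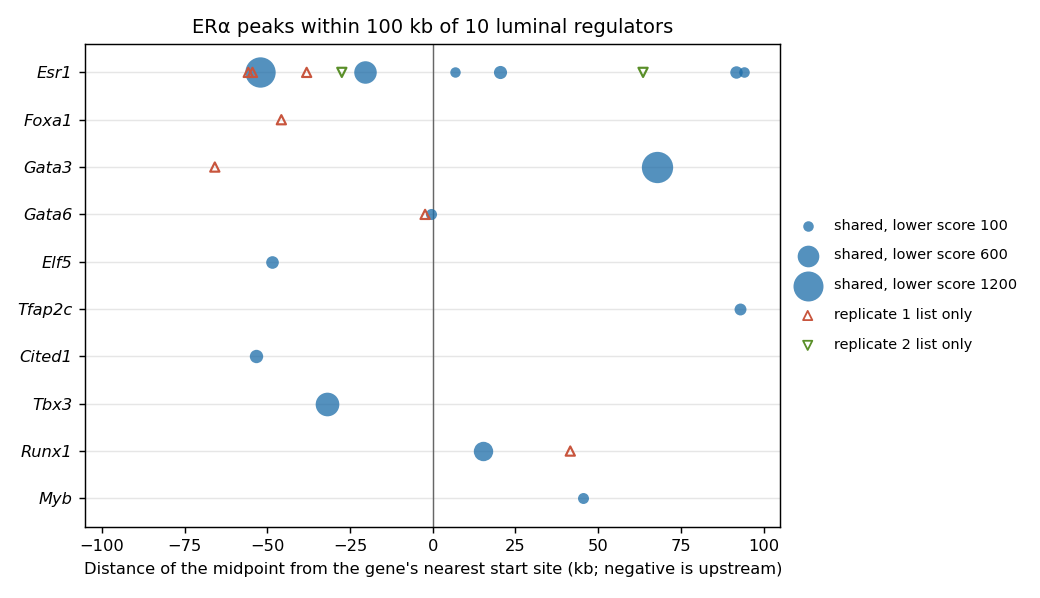
Distance of each ERα peak from the nearest TSS of the gene in kb, with 1 row for each of the 10 genes. Circles are shared regions with an area that grows with the lower of the 2 replicate scores, and triangles are peaks found in the replicate 1 list only (pointing up) or the replicate 2 list only (pointing down). Esr1 carries 6 circles and Foxa1 none.

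Genes with many start sites or a long body have more sequence in reach, so counts were also set against length. The TSSs of Esr1 span a long stretch and 0.515 Mb of sequence was in their reach, which gave 11.7 shared regions per Mb. The assembled chromosomes held 2.35 per Mb, and the mean over the reach of protein-coding genes was 3.48 per Mb. The 8 genes with a single region had between 3.03 per Mb for Runx1 and 5 per Mb for Gata6 and Myb. Any gene with 1 region and 0.200 Mb in reach has 5 per Mb by construction, so these values show no excess over the averages. Esr1 thus stood above the other 9 also per length. Among protein-coding genes, 307 (1.37%) had 6 or more shared regions.

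**Figure D2:**
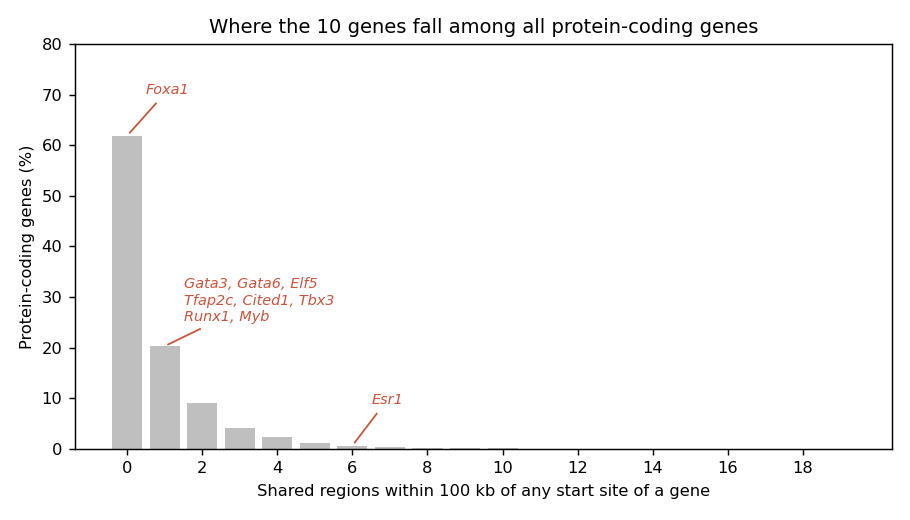
Percent of the 22367 protein-coding genes with each number of shared regions within 100 kb of a TSS, with the 10 genes named at their own number. Foxa1 falls in the tallest bar at 0, 8 genes at 1 and Esr1 at 6.

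Esr1 encodes ERα itself, and its regions lay on both sides of its main group of start sites. The region with the highest scores, chr10:5786868-5787586, had a score of 1629.6 in replicate 1 and 1230.2 in replicate 2. It ranked 200th in the replicate 1 list and 205th in the replicate 2 list, and 3.28% of all shared regions had a lower score at least as high. It was 52.3 kb upstream of Esr1, in an intron of the neighbouring gene Gm221 (Ccdc170 in RefSeq), whose own TSS was nearer at 26.3 kb. Nearer still, at 8.90 kb, was the TSS of an RNase_MRP RNA. A second strong region, chr10:5754999-5755723, was intergenic and 20.4 kb upstream, with Esr1 as its nearest gene. Its scores were 765 and 653, and 10.7% of shared regions had a lower score at least as high.

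Inside the Esr1 gene the regions were weaker. The intronic region chr10:5714113-5714510, 20.2 kb downstream of the nearest TSS, had scores of 252 and 186. The region closest to any Esr1 TSS, chr10:5727397-5727990, was 6.80 kb into the gene and had scores of 97.9 and 111, near the cutoff. The other 2 regions were intronic neighbours with midpoints 2236 bp apart. They were 91.7 and 93.9 kb downstream of the same internal start site and 193 and 195 kb downstream of the most 5′ TSS. With only the most 5′ TSS of each gene, Esr1 kept 4 regions. It kept 3 within 50 kb, 3 when only the gene with the nearest TSS counted (5 with protein-coding genes alone), and 2 when all peaks had to reach 1e-20. No Esr1 region was proximal, which means from 1000 bp upstream to 400 bp downstream of a TSS.

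**Figure D3:**
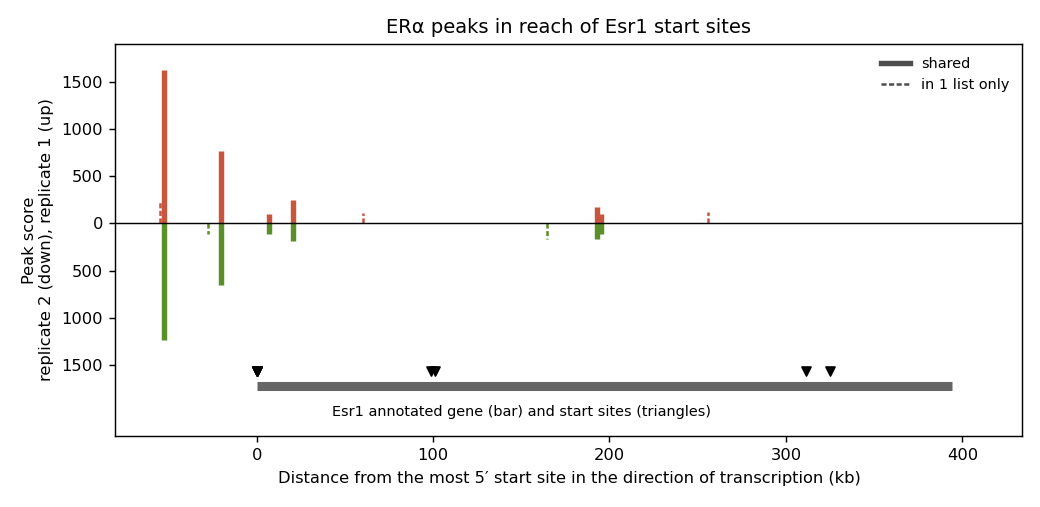
Scores of all ERα peaks in reach of Esr1 in replicate 1 (up) and replicate 2 (down) against the distance from the most 5′ TSS in kb, in the direction of transcription. Thick bars are shared regions, thin dashed bars are peaks of 1 list only, and the grey bar and triangles are the annotated gene and its TSSs. The highest bars stand 52.3 and 20.4 kb upstream.

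FOXA1 is a pioneer factor that opens chromatin for ERα. Foxa1 was the exception among the 10 genes, with a single replicate 1 peak and no replicate 2 peak in reach. That peak, chr12:58692604-58693119, had a score of 123 and was 45.8 kb upstream of Foxa1 in an intron of Ttc6, whose TSS was 16.1 kb away. The nearest replicate 2 peak was 980506 bp upstream and belonged to the nearest shared region, chr12:59627327-59627945, which had scores of 684 and 511. The gene with the nearest TSS to that region was Clec14a, at 257 kb. Of all protein-coding genes, 90.0% had a shared region at least as near.

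Gata3 and Gata6 encode zinc-finger factors of the same family, and GATA3 maintains the luminal state. The Gata3 region, chr2:9726845-9727941, was the widest of the 14 at 1097 bp and lay 51.3 kb past the annotated 3′ end of the gene. Its rank was 262nd in replicate 1 and 180th in replicate 2, and 2.80% of shared regions had a lower score at least as high, the smallest share among the 14. The study's ChIP-qPCR primer pair for Gata3 matched the genome at 1 place, chr2:9727352-9727412. These 61 bp were inside the shared region, centred 11 bp from its midpoint, and ended 5 bases into the ERE-like match. By ChIP-qPCR on vehicle-treated and estradiol-treated mice, the study reported that ERα recruitment to Gata3 depended on estradiol. A replicate 1 peak of 87.4, 65.9 kb upstream in an intron of Taf3, had no replicate 2 partner.

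The single Gata6 region had the opposite position. It was centred 408 bp upstream of the Gata6 TSS and was the only proximal region among the 14, a position that 1.59% of protein-coding genes shared. Its scores were 242 in replicate 1 and 116 in replicate 2, and 71.6% of shared regions had a lower score at least as high. A further replicate 1 peak with a score of 84.2 was 2316 bp upstream and was absent from replicate 2. Gata3 thus carried a strong distal region and Gata6 a weak one at its start site.

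Elf5 and Tfap2c encode factors of luminal progenitors: ELF5 is an ETS factor of alveolar differentiation, and TFAP2C is an AP2 factor. The Elf5 region, chr2:103202895-103203381, was intergenic and 48.7 kb upstream. The same region was 59.7 kb upstream of Ehf, another ETS factor gene on the opposite strand, so it was in reach of both genes. A non-coding gene, A930006I01Rik, had the nearest TSS at 9.78 kb. Its scores were 416 in replicate 1 and 169 in replicate 2, a ratio of 2.46 that 97.0% of pairs did not exceed. The midpoints of its peaks were 101 bp apart, and the region was lost when midpoints had to lie within 100 bp.

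The Tfap2c region, chr2:172470085-172470635, was 92.7 kb downstream of the nearest TSS and 86.2 kb past the 3′ end of the gene. Tfap2c was nevertheless the gene with the nearest TSS. The scores were 229 and 144, a ratio of 1.59 that 72.8% of pairs did not exceed. At a reach of 50 kb the regions of Tfap2c, Gata3 and Cited1 dropped out, as did 3 of Esr1 with its strongest among them.

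CITED1 is a co-activator that binds other transcription factors, ERα among them, and has no DNA-binding domain of its own. Its region, chrX:99500826-99501167, lay 53.5 kb upstream in an intron of Hdac8. The TSS of a non-coding gene, Gm14858, was slightly nearer at 53.0 kb. The scores of 195 and 199 differed little between the replicates, with a ratio of 0.978. Of all pairs, 17.1% had a ratio at or below it.

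TBX3 is a T-box factor needed for the mammary bud. The Tbx3 region, chr5:120088244-120089017, was intergenic and 32.0 kb upstream. Its scores of 1121 and 726 were the third highest among the 14, and 9.14% of shared regions had a lower score at least as high. The non-coding gene Gm16064 had the nearest TSS, at 7.51 kb.

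RUNX1 binds DNA together with CBFβ and is a known regulator of luminal cells. The Runx1 region, chr16:92680491-92681127, was intronic, 15.1 kb downstream of an internal TSS and 145502 bp downstream of the most 5′ TSS. Its scores were 590.3 and 470.5. With the most 5′ TSS alone, 0 regions were in reach of Runx1.

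MYB drives proliferation and is known as an estrogen-responsive gene in breast cancer cells. The Myb region, chr10:20835059-20835517, lay 9448 bp past the 3′ end of the gene and 45.5 kb from its TSS, and the nearest TSS was that of the non-coding gene Gm16786 at 29.6 kb. Its scores were 114 in replicate 1 and 201 in replicate 2. The ratio of 0.566 was the lowest among the 14, and only 0.689% of all pairs had a ratio at or below it. Among the shared regions outside Esr1, the one with the lowest replicate 1 score thus held the only perfect ERE, although in replicate 2 it scored above 4 of the others.

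Across the 14 regions the scores of both replicates were compared with those of the 6097 one-to-one pairs, in which a peak of either list overlapped a single peak of the other. Over all pairs the median ratio of the replicate 1 to the replicate 2 score was 1.31, with quartiles of 1.07 and 1.63, and replicate 1 was higher in 81.2%. At the 14 regions the median was 1.21, and replicate 1 was higher at 10. The 4 with a higher replicate 2 score were Myb, Cited1 and the Esr1 regions 6.80 and 93.9 kb downstream. The lower score had a median of 177 at the 14 regions and of 168 over all shared regions, and 8 of the 14 were above the latter. As a group, then, the regions were of about average strength, and the strong ones belonged to Gata3, Esr1, Tbx3 and Runx1.

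**Figure D4:**
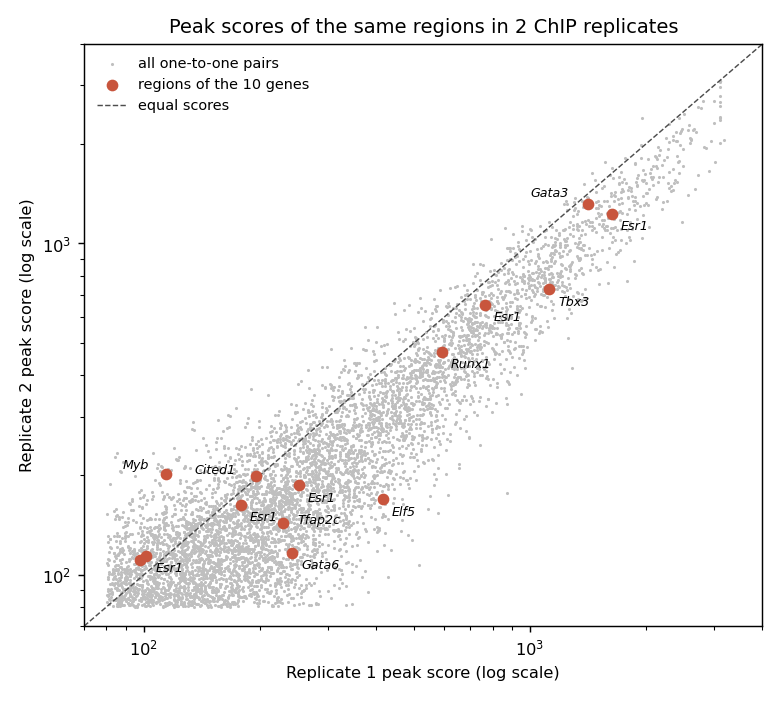
Replicate 2 score (vertical) against replicate 1 score (horizontal) of the same region, both on log scales, for 6097 one-to-one pairs (grey) and the 14 regions of the 10 genes (red), with a dashed line of equal scores. Myb lies above the line with a ratio of 0.566 and Elf5 below it with a ratio of 2.46. An unlabelled point beside the lowest Esr1 label is also an Esr1 region.

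The peak positions of the replicates were close. The midpoints of overlapping peaks were between 4 and 134 bp apart, and between 61.8% and 100% of a peak was inside its shared region. Peaks of 1 list only made up 7 of 21 replicate 1 peaks (33.3%) and 2 of 16 replicate 2 peaks (12.5%). Over the whole lists these shares were 35.1% and 9.36%, close to those of the 10 genes. Of these 9 peaks, 5 were in reach of Esr1, and the highest, chr10:5789099-5789763 in replicate 1 with a score of 241, lay close to the strong region 52.3 kb upstream. Replicate 2 contributed peaks of 163 and 113 at Esr1.

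By place, 7 of the 14 regions were intronic, 7 were intergenic and 0 were exonic, where all shared regions were 42.8% intronic and 53.3% intergenic. Their midpoints were upstream of the nearest TSS of the gene in 6 and downstream in 8, at a median distance of 47104 bp. The gene itself had the nearest TSS of any gene for 7 of the 14, and the nearest of any protein-coding gene for 13, all but the Esr1 region 52.3 kb upstream.

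Motifs were searched as exact words on both strands in 400-bp windows centred on the regions, and a match is a description of letters and not of a bound factor. The ERE was written as GGTCANNNTGACC, with mismatches counted over its 10 fixed positions. With at most 1 mismatch it was found in 5 of the 14 windows (35.7%, interval 12.8% to 64.9%), in 31.1% of all shared regions and in 1.1% of 12040 windows placed 5 kb to each side of the regions. The 5 were those of Myb, Gata3, Tfap2c, Cited1 and Esr1 at 52.3 kb upstream. A perfect match was in 1 window (7.14%) and in 6.60% of all regions. The share was near that of all regions. High scores were also found at regions with only weaker matches, with 2 mismatches at Tbx3 and 3 at the strong Esr1 region 20.4 kb upstream. At most 2 mismatches were found in 15.5% of the flanking windows and 67.3% of all regions, and at most 3 in 70.7% and 95.1%. Such a match is thus common without a peak and does not show what ERα bound.

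**Figure D5:**
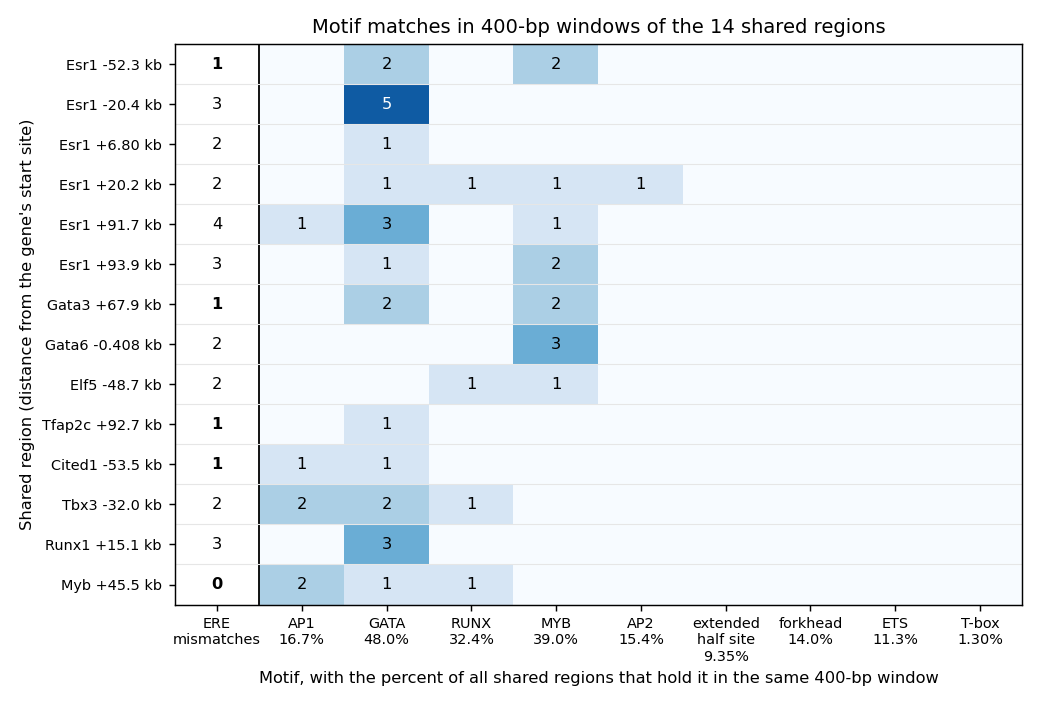
Number of matches to each motif in the 400-bp window of each of the 14 shared regions, with the mismatches of the best ERE-like match in the left column (bold for 0 or 1). The percent under each motif is the share of all shared regions with at least 1 match. GATA words are in 12 of 14 rows, and 4 columns are empty.

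GATA words were the most widespread of the short motifs. At least 1 of these words, AGATAA or AGATAG or TGATAA or TGATAG, was in 12 of the 14 windows (85.7%, interval 57.2% to 98.2%), against 48.0% of all shared regions. The motif intervals treat the 14 windows as separate, although 6 of them belong to Esr1, all with a GATA word. The windows 5 kb to each side of the same 14 regions also held them often, in 21 of 28 (75%), where flanks in general had 52.6%. The words per window were 1.64 in the 14, 1.18 in their own flanks, 0.698 over all regions and 0.853 in flanks in general. Esr1, with 6 of the 14 windows and 5 words in 1 of them, weighs on the first value. The 2 windows with no GATA word were those of Gata6 and Elf5. The Esr1 window at 20.4 kb held 5, of which 1 overlapped the ERE-like match and another lay 1 bp from it. In the Tfap2c window the only GATA word was inside the ERE-like match.

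AP1 words, TGACTCA, were in 4 of the 14 windows (28.6%, interval 8.39% to 58.1%) and in 16.7% of all regions. In each of the 4 an AP1 word lay within 25 bp of the ERE-like match, at 3 bp for Cited1, 6 bp for Myb, 11 bp for Tbx3 and 22 bp for the Esr1 region 91.7 kb downstream. Of all 1045 regions with an AP1 word, 245 (23.4%) had one that near. The Esr1 match has 4 mismatches, and flanks often hold a better one, with at most 3 in 70.7% of their windows. The 25 bp was set after the 4 spacings were seen. Tbx3 and Myb had 2 AP1 words each. The flanks of the 14 regions had 0 in 28 windows, where flanks in general had 7.11%.

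For words of the other families no difference was tested, and the interval of each share in the 14 windows covered the share of all regions. RUNX words, TGTGGT or TGCGGT, were in 4 windows (28.6%, interval 8.39% to 58.1%) and 32.4% of all regions. Flanks in general held them in 31.1%, and the flanks of the 14 regions in 2 of 28 (7.14%). The RUNX word of Myb overlapped its ERE. MYB words, CAACTG or TAACTG or CAACGG or TAACGG, were in 7 windows (50%, interval 23.0% to 77.0%) and 39.0% of all regions. For these words the shares were 36.0% of flanks in general and 12 of 28 (42.9%) of the regions' own. The Gata6 window held 3 of these words and that of Myb none. The AP2 word GCCNNNGGC was in 1 window, of Esr1 (7.14%, interval 0.181% to 33.9%), and in 15.4% of all regions. The forkhead words TGTTTAC and TATTTAC were in 0 of the 14 and in 14% of all regions. The ETS words AGGAAGT and CGGAAGT, the T-box word AGGTGTGA and the ERE arm with added bases CAAGGTCA were also in 0 of the 14, against 11.3%, 1.30% and 9.35% of all regions, and with 14 windows a count of 0 has an upper limit of 23.2% by the same interval. None of the 14 windows therefore held an ETS or T-box word, including those of Elf5 and Tbx3. In the 9 peaks of 1 list only, RUNX words were in 6, forkhead words in 3, the ERE arm with added bases in 3, ETS words in 2 and the T-box word in 0, against 30.1%, 13%, 7.51%, 12.6% and 1.72% of all such peaks. GATA and MYB words were in 4 each, AP1 in 2 and AP2 in 1, against 45.5%, 39.5%, 15.5% and 16.6%.

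Other genes of the same families and of the gland were counted for comparison. Of 25 paralogs of the 10 genes, 12 had at least 1 shared region in reach (48.0%, interval 27.8% to 68.7%), with at most 2 each. Esr2, Foxa2, Tbx2 and Runx2 had 0, whereas Foxa3, Gata2, Elf3 and Cited2 had 1 and Gata4, Gata5 and Cited4 had 2. Of 19 other luminal regulators, 14 had at least 1 (73.7%, interval 48.8% to 90.9%). These genes include Ehf, whose only region is the one of Elf5. Among them, Cebpb had 18 within 0.200 Mb of sequence, Pgr 7, and Stat5a and Stat5b 6 each, the Stat5 genes being neighbours whose reach overlaps. Esr1 was therefore not alone at 6. Of 10 genes listed as basal regulators, 5 had at least 1 (50%, interval 18.7% to 81.3%), among them Trp63 and Sox9 with 1 and Sox10 with 2. That label was not checked in these data and does not mean basal cells only. Over all protein-coding genes the share was 38.1%. The lists were chosen with earlier results of these data known, and some of their genes share regions. The intervals therefore cannot decide whether a list differs from 38.1% or from another list, and these differences were not tested.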

How the data were processed

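ERα ChIP-seq peak lists of 2 replicates were analysed, and the input entered only through peak calling. BWA was used by the authors for the alignment of 51-nt reads to mm9, and MACS (version not given in the sources used here) for calling each replicate on its own against input with a cutoff of 1e-08. The deposited score, the negative log10 of a peak's p-value multiplied by 10, is not scaled between replicates. The lists hold no reads, and the study's table of read counts for each sample was not used here.

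Midpoints were assigned to TSSs of GENCODE version 1 (Ensembl 65, NCBIM37), whose chromosome ends contained all peaks on assembled chromosomes. Of the 10 genes, 9 were found by symbol and Tfap2c as Tcfap2c through RefSeq synonyms. Of 2 Runx2 models, the longer was used. Exons and introns are those of protein-coding genes. Sequences are the mm9 reference, of the C57BL/6J strain, and not of the BALB/cJ mice. The Gata6 sequence is not reported here. Overlap, TSS assignment and motif search were tested on simulated data and recovered 100% of what was planted.

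All 10 genes are named, with every shared region of genes with at most 5 and, for Esr1, the 3 with the highest lower score and the closest to a TSS; other regions and the list genes named were chosen after their values were seen. The genes and lists were chosen with earlier results of these data known, so no p-value is given. The replicates give no estimate of the spread between animals. Alternatives were stricter p-values, other overlaps, TSS sets and distances, other motif settings, and each replicate alone. The tools were samtools 1.23.1, Python 3.11.15, pysam 0.24.0, numpy 2.4.6, matplotlib 3.10.9 and scipy 1.17.1.

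One gene of the list of other luminal regulators is counted in the list's totals and is not reported here on its own.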

Additional observations from a re-analysis of the deposited data

How the results depend on the processing

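Of 42 alternative values of 4 main results, 33 were within 1.5 times the main count, or for the ERE share within its interval, and 9 were outside. When both lists were held to a p-value of 1e-20, 5 of the 14 shared regions and 4 of the 9 genes remained and the median per gene went from 1.00 to 0. With the nearest TSS of any gene only, there were 7 regions at 5 genes and a median of 0.5 per gene. With the nearest TSS of a protein-coding gene, chosen after the data were seen, 13 regions at 9 genes stayed and the median was 1.00. Within 50 kb there were 8 regions at 6 genes (60.0%), against 24.5% of protein-coding genes. These settings admit fewer regions by construction. The share of windows with an ERE was 7.14% with no mismatch and 71.4% with at most 2, against 35.7% with at most 1. Replicate 2 or replicate 1 alone gave between 16 and 21 peaks at 9 to 10 genes, a median of 1.00, and an ERE share of 31.2% to 28.6%. The score ratio was not tested: each of the 14 regions had 1 peak on each side, so the other way of pairing gives the same pairs.

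Of 120 alternative counts of single genes, 95 were within 1.5 times the main count (9 of them for Foxa1 at stricter settings, which can only give 0), 17 were lower and 8 were higher. With counts of 1 for most genes, 1 region decides each such value.

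Read counts, which the study gives for each sample in a table not used here, are not in the lists, so the absence of a peak means only that none passed the cutoff. With 14 regions the intervals are wide, the replicates are 2 pools from 1 treatment, and distance to a TSS does not show which gene a region acts on.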
